A study of Arabidopsis thaliana with 16 samples.

Results

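Open flowers of Arabidopsis thaliana were compared with unpollinated pistils on the ATH1 array, in which a probe set, a group of short oligonucleotides, reports the abundance of a transcript. The comparison took the 2 flower arrays and the 2 unpollinated pistil arrays out of 16 arrays of 8 sample types, and it took all 22746 probe sets of the table except the 64 controls of the array, without any choice by value. The series itself was built around isolated root hairs and pollen, with whole organs as references. Each sample type had 2 arrays labelled as biological replicates. The flowers were open flowers of the Columbia ecotype, and the pistils were unpollinated pistils of the same ecotype. Both were profiled as biotin-labelled total RNA on the same array design, the amplification used for each is not given in the sources used here, and no mutant, transgene or treatment was given for either. The flower arrays came from an earlier study that also supplied the leaf, seedling, silique and pollen arrays, whereas the pistil arrays came from another study that also supplied the ovule arrays. The studies had no sample type in common, so the tissue and the study cannot be told apart in any value below.

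An open flower holds sepals, petals, stamens and a pistil, whereas the pistil alone holds the stigma, style, transmitting tract, ovary wall and ovules. The comparison therefore sets a whole flower, its own pistil included, against the pistil alone. Whether the pistils of the open flowers were pollinated is not given in the sources used here. Stamens carry pollen, whose transcripts for cell wall enzymes, actin regulators and receptor kinases are stored for the growth of the pollen tube, and nectaries at the base of the stamens secrete sugar. In whole organs, fewer cells of a type and less RNA per cell cannot be told apart.

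Values are intensities on the scale deposited by the authors, and differences are given as flowers minus unpollinated pistils in log2(intensity + 71.9), where 71.9 is the pseudocount, with the standard error (SE) of the difference. This scale understates the change of dim probe sets. A probe set was called at an adjusted p under 0.05 in the limma fit, and a mean above 216, 3 times the pseudocount, counted as above the detection level. The flower arrays had a median intensity of 206 and 209, and the pistil arrays 216 and 222. The flower arrays correlated at 0.998 with each other and the pistil arrays at 0.990 across probe sets, and the median replicate difference was 0.06 in flowers and 0.11 in pistils on the log2 scale. Precision is limited by 2 arrays a group.

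Of the 22746 probe sets, 3618 were higher in flowers (15.9%) and 6161 were lower (27.1%), together 9779 (43.0%), and the remaining 12967 were not called. At a difference of 2-fold or more the order turned round, with 1022 higher (4.49%) and 706 lower (3.10%). The median difference over all probe sets was -0.06. A single gene was known here for 657 of the 1022 and for 391 of the 706, so part of what follows rests on the named probe sets only. Of 154 called genes picked by the size of their difference or looked up by name, 18 lost the call with at least 1 array left out. Their differences were at most 0.62 in size. Further list members named only by their call, such as TSL, were not in that check.

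Most of the named genes with the highest differences had very bright signal in pollen, although the single highest, CYP71B31, did not. Of the 1022 probe sets higher in flowers by 2-fold or more, 521 (51.0%) were above the detection level in pollen, against 18.3% of all probe sets, and 350 (34.2%) were above it in ovules, against 51.6% of all probe sets. The share above detection in pollen was 36.1% among the 2596 called probe sets with a difference under 1, 55.9% among the 179 between 2 and 3, and 83.8% among the 74 at 4 or more. In those 74 the median intensity in pollen was 15385. Among the 706 probe sets lower in flowers by 2-fold or more, 67 (9.49%) were above detection in pollen and 522 (73.9%) in ovules.

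**Figure D1:**
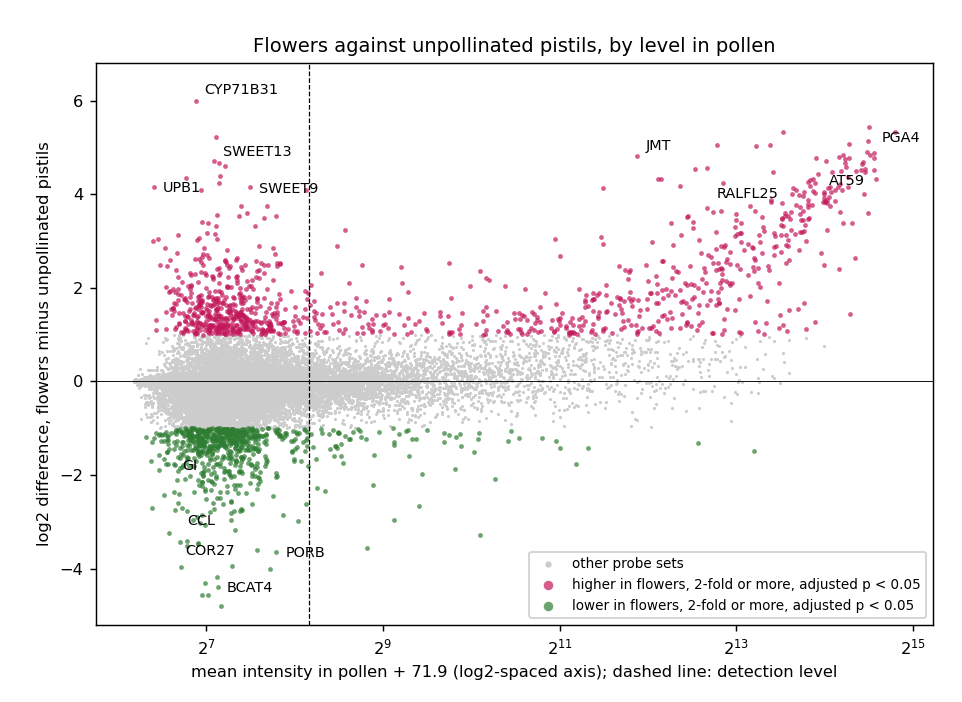
Each point is a probe set, with its mean intensity in pollen plus the pseudocount on a log2-spaced x axis and the log2 difference, flowers minus unpollinated pistils, on the y axis. Coloured points differ by 2-fold or more at an adjusted p under 0.05, and the dashed line is the detection level. One arm of probe sets higher in flowers climbs with the level in pollen, and a separate group, led by CYP71B31 at 5.98, lies left of the detection level.

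Of the 15 named genes with the largest positive difference, 13 were above detection in pollen and none was above detection in unpollinated pistils. AT3G07820 had intensities of 7468 and 7296 in flowers, against 87.5 and 111 in pistils (log2 difference 5.45, SE 0.14, limma adjusted p = 1.1e-13). AT3G28750 had 9182 and 8697 in flowers, against 161 and 145 in pistils. In pollen AT3G07820 was at 23131 and AT3G28750 at 28412, and in ovules they were at 57.5 and 76.5, so that the flower arrays lay between the pollen arrays and all other organs. PGA4, a polygalacturonase that cuts pectin in the cell wall, was at 6841 and 6201 in flowers, against 117 and 190 in pistils (4.89, SE 0.15). Also in this group were AT3G01270, AT3G28980, AT3G28830, AT5G47000, AT5G48140, AT5G07430, AT4G02250, AT3G01240 and AT5G26700, with differences between 4.67 and 5.13. The ranking took only genes with both flower arrays above both pistil arrays and above the detection level. In each of these genes the gap was far larger than the difference between replicates.

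JMT, which methylates jasmonic acid to the volatile methyl jasmonate, was bright in pollen but not only there. It had 3230 and 3298 in flowers, against 41.8 and 50.9 in pistils (log2 difference 4.82, SE 0.13, limma adjusted p = 2.4e-13). The mean of JMT was 3683 in pollen, 5050 in siliques, 511 in leaves and 59.2 in ovules. All flower, leaf, seedling and silique arrays were thus above all pistil and ovule arrays for this gene.

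The list of pollen grain and pollen tube genes had 22 members on the array with a gene name here, of 54 listed. Part of the gene names came from the study's tables of genes expressed in root hairs and pollen, which can favour pollen genes. All 22 were above detection in pollen. All 22 were also higher in flowers (15.9% of all probe sets were), with a median difference of 2.19. In 18 of them the difference was 1 or more. The 5 members with the largest differences were AT59, a pectate lyase (4.44), the glycosyl hydrolase GH9A4 (3.73), the hexose transporter STP11 (3.49), the receptor kinase PRK4 (3.47) and ANX2 (3.31), a receptor kinase that keeps the growing pollen tube intact. AT59 had 2394 and 2276 in flowers, against 36.3 and 42.0 in pistils, and ANX2 had 1004 and 942 in flowers, against 28.7 and 38.3 in pistils. None of the 22 had arrays that overlapped between the groups, as was so for all 3618 probe sets called higher. The smallest differences were those of AGL65 (0.29, adjusted p = 0.013 in limma) and AGL104 (0.82), a pair of MADS-domain transcription factors of maturing pollen.

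Summed over the 22 pollen genes, the intensity was 17905 and 17924 in the flower arrays, against 1501 and 1783 in the pistil arrays. The same sum was 163031 and 163421 in pollen, 1470 and 1517 in ovules, and 1590 and 1723 in leaves, so the pistil arrays lay in the range of leaves and ovules or just above it. No member was above detection in pistils, and 20 were above it in flowers. The flower mean of a member was 9.19% of its pollen mean in the median, from 4.88% to 22.3%.

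Cytoskeletal and membrane genes of the pollen tube were among the 22. PRF5, a profilin that binds actin monomers, had 1062 and 1172 in flowers, against 61.3 and 65.6 in pistils (3.13), and PRF4, another profilin, had 342 and 354 in flowers, against 69.1 and 83.6 in pistils. SYP131, a syntaxin of the plasma membrane, differed by 3.19, CSLD1, which is related to cellulose synthases, by 3.10, and ROPGEF12, an activator of ROP GTPases, by 2.19. The calcium pump ACA9 had 448 and 430 in flowers, against 56.9 and 65.0 in pistils. Outside that list MGH3, a histone H3 of the male gametes, had 158 and 143 in flowers, against 45.7 and 51.3 in pistils, all below the detection level although the difference of 0.88 was called (SE 0.06, limma adjusted p = 3.1e-08).

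A second set of genes was high in flowers with pollen below the detection level, and CYP71B31 led it. CYP71B31, a cytochrome P450 that oxidises the floral scent compound linalool, had 6053 and 5894 in flowers, against 21.7 and 25.6 in pistils, which was the largest difference of all probe sets (5.98, SE 0.07, limma adjusted p = 1.1e-16). Its mean lay between 19.6 and 45.9 in pollen, ovules, leaves, siliques and seedlings. AT3G25810 had 2863 and 2914 in flowers, against 44.4 and 46.5 in pistils (4.66). SWEET9, a sugar exporter needed for nectar secretion, had 3061 and 2878 in flowers, against 95.1 and 104 in pistils (4.15, SE 0.07). These 3 genes were not above detection in any other sample type, and their flower and pistil arrays were far apart.

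They came from the list of floral volatile and nectary genes, of which 4 of 13 were measured and 3 were higher (15.9% of all probe sets were). These 4 do not stand for the whole list. The fourth, BSMT1, which methylates salicylic and benzoic acid, had 208 and 196 in flowers, against 239 and 234 in pistils (limma adjusted p = 0.77).

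By the same selection, the 10 named genes highest in flowers with pollen below detection also held SWEET13 (4.71), AT1G70720 (4.39), AT5G38130 (4.35), UPB1 (4.16), AT1G76240 (3.76), AT3G55870 (3.60) and SWEET14 (3.56). UPB1, a basic helix-loop-helix factor known for its control of reactive oxygen in the root tip, had 1928 and 2115 in flowers, against 43.8 and 46.6 in pistils. Of the 10, 8 were below detection in each of the other 7 sample types. The exceptions were SWEET13, at 1340 in leaves and 430 in siliques, and AT1G76240, at 1671 in leaves and 1324 in seedlings, and for these 2 genes all flower, leaf, seedling and silique arrays were above all pistil and ovule arrays.

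**Figure D2:**
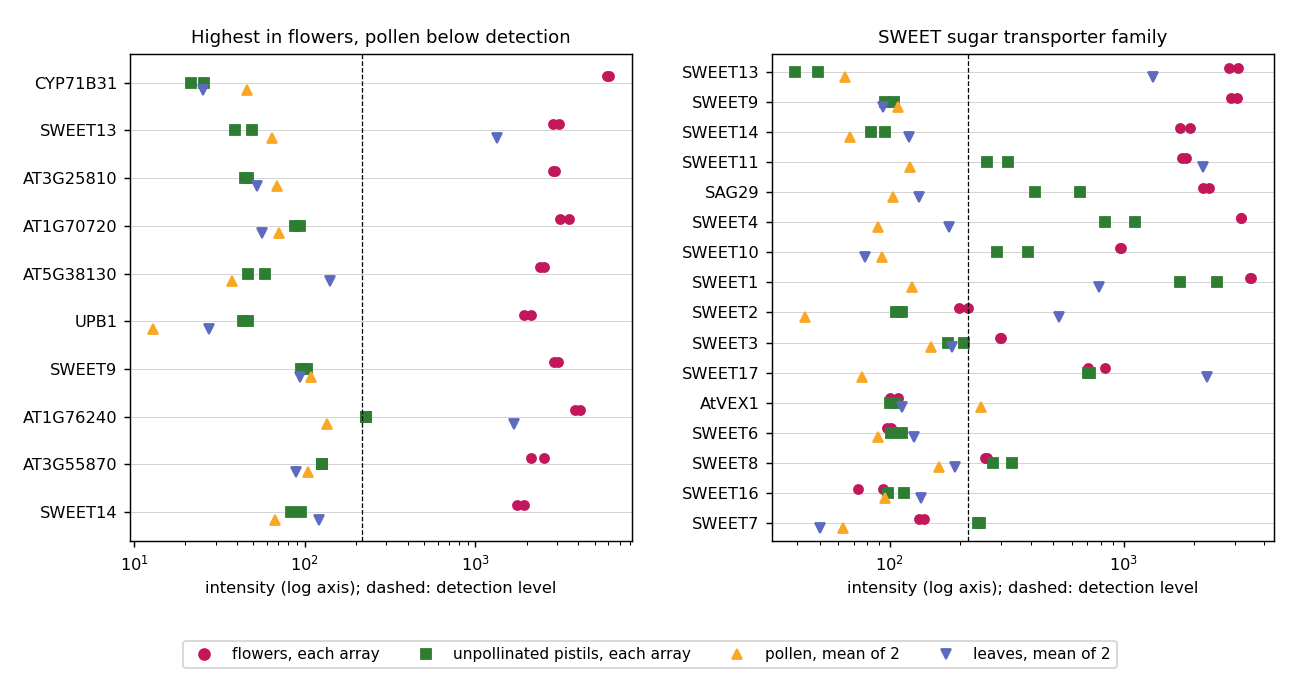
Intensity on a log axis for the 10 named genes highest in flowers with pollen below detection (left) and for the 16 measured members of the SWEET family (right), with each flower array, each unpollinated pistil array and the means of pollen and leaves. The dashed line is the detection level. In the left panel the flower arrays lie between 1749 and 6053 and all pistil arrays at or below 228, and in the right panel the groups are furthest apart in SWEET13, SWEET9 and SWEET14.

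Because 3 SWEET genes stood among these 10, the whole SWEET family of sugar transporters was described, a choice made after the values were seen. Of 16 measured members, 10 were higher in flowers, 1 was lower and 5 were not called (15.9% and 27.1% of all probe sets were higher and lower), with a median difference of 0.67. SWEET13 had 2835 and 3098 in flowers, against 39.3 and 49.4 in pistils, and SWEET14 had 1749 and 1921 in flowers, against 83.1 and 95.4 in pistils. SWEET11, a sucrose exporter for phloem loading, differed by 2.38 and SAG29, also named SWEET15, by 1.97. SWEET4 had 3182 and 3170 in flowers, against 1125 and 836 in pistils (1.64), and was also bright in ovules at 4019. SWEET7 was the member that was lower, with 141 and 134 in flowers, against 238 and 244 in pistils (-0.58, limma adjusted p = 0.00013), and it was at 812 in ovules.

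Genes of petal growth and cell expansion were higher in flowers in part. BPEp, a basic helix-loop-helix factor that limits petal size, had 1595 and 1756 in flowers, against 475 and 538 in pistils (1.60, SE 0.09, limma adjusted p = 1.9e-09). It was the single called member of 4 measured in the list of sepal and petal growth, and RBE, PTL and CYP78A5 were below detection in both groups. Of 20 expansins, proteins that loosen cell walls, 9 were higher, 2 were lower and 9 were not called, where 15.9% and 27.1% of all probe sets were higher and lower, with a median difference of 0.04. EXPA8 had 3612 and 4286 in flowers, against 362 and 383 in pistils (3.17), and EXPA11 had 1874 and 2180 in flowers, against 299 and 405 in pistils (2.31). Next came EXPB5 (1.92), EXPA15 (1.58) and EXPA4 (1.53), EXPA24 (1.29), EXPB3 (0.89), EXLA2 (0.42) and EXLA3 (0.32). EXPB5 and EXPA4 stood at 6239 and 8052 in pollen, whereas EXPA8, EXPA11 and EXPA15 were below detection there, so the called expansins fell into genes with and without pollen signal. The lower pair were EXPA16 (-0.54) and EXLB1 (-0.46).

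Other annotated families held members called in either direction. Among 12 genes of RALF peptides, small secreted signals, 4 were higher and 4 were lower (15.9% and 27.1% of all probe sets were). RALFL26 had 4316 and 4167 in flowers, against 98.2 and 134 in pistils (4.52), and RALFL25 differed by 3.77, with pollen at 21712 and 13064. RALFL18 (0.78) and RALFL22 (0.67) were higher with pollen below detection, and RALFL18 was below detection in flowers and pistils too. RALFL28 had 110 and 106 in flowers, against 323 and 359 in pistils (-1.20, limma adjusted p = 4.9e-09), with 1535 in ovules. RALFL31 (-0.52), RALF1 (-0.45) and RALFL34 (-0.35) were lower by less.

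Among pectin enzymes, the polygalacturonases had 1 higher member of 9, PGA4, and 4 lower members. For these and the next families the shares of all probe sets were 15.9% higher and 27.1% lower. The lower polygalacturonases were AT1G23460 (-0.51), AT1G19170 (-0.41), AT1G10640 (-0.37) and JP630 (-0.18), of which 2 were called without the second flower or the second pistil array. The pectate lyases had AT59 higher and AT1G04680 (-0.86) and AT3G24670 (-0.47) lower, of 4. Of 8 pectinesterases and their inhibitors, AT1G23200 was higher with 509 and 524 in flowers, against 98.6 and 100.0 in pistils (1.78), although it was below detection in pollen and at 5216 in siliques. AT1G09370, with a pectinesterase inhibitor domain, was lower with 68.3 and 58.0 in flowers, against 361 and 303 in pistils (-1.58), and it was at 1213 in ovules and 1256 in siliques. AT1G11370 (-0.31) was also lower, with both groups below detection.

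Of 7 GDSL lipases, AT2G19050 was higher (1.76, at 7023 in pollen) and AT1G09390 (-0.66) and AT5G62930 (-0.63) were lower. Of 7 lipid transfer genes, AT4G39670 (1.94), AT4G22490 (0.86), AT1G05450 (0.57) and AT1G18280 (0.40) were higher and AT1G12100 (-0.27) was lower. The 5 arabinogalactan proteins had AGP24 (1.43), AGP22 (1.05) and AGP12 (0.60) higher and none lower, and AGP24 and AGP22 were above detection in pollen. Of all probe sets 15.9% were higher and 27.1% lower, and each of these families had few measured members.

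**Figure D3:**
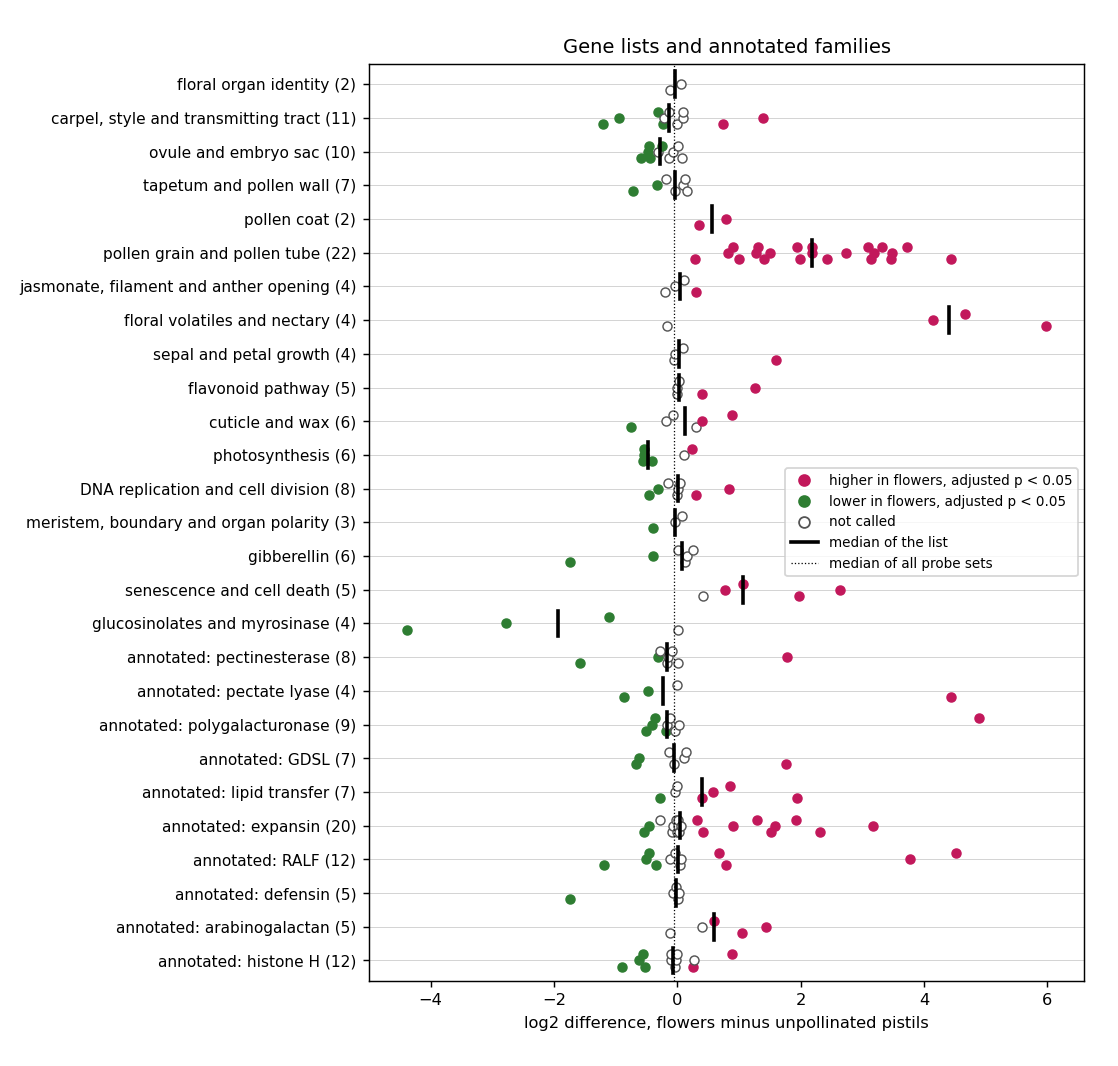
Log2 difference, flowers minus unpollinated pistils, of every measured member of the gene lists and of the annotated families with more than 1 measured member, with the number of members in brackets. Filled points were called at an adjusted p under 0.05, open points were not, the short bar is the median of a list and the dotted line the median of all probe sets at -0.06. All 22 pollen genes lie right of the line, and the glucosinolate list has the lowest median of those drawn, at -1.94.

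The lists that mark the pistil itself were measured only in part. Of 11 measured genes of carpel, style and transmitting tract, 4 were lower and 2 higher in flowers (27.1% and 15.9% of all probe sets were), with a median of -0.13. These shares are near the background, and without the second flower array or the second pistil array 2 were lower. SPT, a basic helix-loop-helix factor for the growth of style and transmitting tract, had 158 and 169 in flowers, against 488 and 451 in pistils (-1.20, SE 0.08, limma adjusted p = 7.8e-09). ALC, which forms the separation layer of the fruit, had 311 and 268 in flowers, against 663 and 586 in pistils (-0.95). In both genes the pistil arrays were above the flower arrays, and ovules stood at 378 for SPT and 1169 for ALC.

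The other called members were SEU (-0.31) and TSL (-0.24), a transcriptional co-repressor and a protein kinase of flower development. BEE1, a brassinosteroid response factor, ran the other way with 440 and 500 in flowers, against 120 and 149 in pistils (1.39), as did NGA1 (0.74), a factor of style development that was also at 425 in leaves. NGA2, NGA3, NGA4, JAG and NUB were not called, and the means of all 5 were below detection in both groups.

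Of 10 measured genes of ovule and embryo sac, 5 were lower (27.1% of all probe sets were) and none was higher, with a median of -0.28, and 3 were lower without the second flower array. The egg cell gene EC1.2 had 120 and 116 in flowers, against 197 and 232 in pistils (-0.59), and EC1.5 had 158 and 157 in flowers, against 226 and 253 in pistils (-0.44). Their ovule means were 824 and 899, so the pistils stood between the flowers and the ovules. INO, which directs the outer integument of the ovule, had 336 and 324 in flowers, against 516 and 459 in pistils (-0.48). BAN (-0.46), of the seed coat, and SPL (-0.25), of sporogenous cells, were lower too. AGL80, AGL61, AGL62, MEA and FER were not called.

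Among the floral organ identity genes only STK and UFO were measured of 18 listed, and neither was called. STK, the ovule identity gene, had 1449 and 1277 in flowers, against 1574 and 1404 in pistils (-0.12, SE 0.10, limma adjusted p = 0.37), with arrays that overlapped. UFO was below detection in both groups (adjusted p = 0.65). The stamen and petal genes AP3 and PI were not analysed here.

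Of 28 listed genes of the tapetum and pollen wall 7 were measured. None was higher and 2 were lower, where 15.9% and 27.1% of all probe sets were. The share that was lower is near the background. The lower pair were LAP6 (-0.72), a polyketide synthase of the pollen wall, and EMS1 (-0.34), the receptor that specifies the tapetum. The call of EMS1 was lost without the second flower array or the second pistil array. EMS1 had 689 and 642 in flowers, against 769 and 959 in pistils, and it was at 3385 in ovules. AMS, CYP703A2, AT5G07230 and SHT were below detection in both groups and SWEET8 was not called. Of 16 listed genes of the pollen coat only 2 were measured, the wax genes CER1 and CER3. Both were higher (15.9% of all probe sets were). CER1, of alkane synthesis, had 7101 and 7364 in flowers, against 4129 and 4178 in pistils (0.79, limma adjusted p = 2.4e-06), and CER3 differed by 0.35, while neither was above detection in pollen. Of 4 genes of jasmonate, filament and anther opening, ARF8 was higher by 0.30 on the log2 scale and LOX3, AOC4 and JAZ1 were not called.

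Surface and pigment genes split. CYP86A4 of cutin synthesis had 802 and 957 in flowers, against 463 and 420 in pistils (0.89), and the transporter ABCG11 differed by 0.39, and by 0.13 with no call when the second pistil array was left out. SHN3, a factor that promotes cuticle formation, was lower with 422 and 426 in flowers, against 695 and 847 in pistils (-0.76). KCS1, GPAT4 and SHN1 were not called. In the flavonoid list UGT78D2, a flavonoid glucosyltransferase, had 848 and 803 in flowers, against 325 and 280 in pistils (1.26), and AT5G54010 differed by 0.40 with 901 in pollen. DFR, UGT78D1 and UGT78D3 were not called.

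Senescence genes were higher in flowers in 4 of 5 (15.9% of all probe sets were), with a median of 1.06. SAG21 had 5044 and 5137 in flowers, against 903 and 634 in pistils (2.64, SE 0.23, limma adjusted p = 2e-07), and it was at 20715 in pollen. SAG29 had 2322 and 2190 in flowers, against 650 and 418 in pistils (1.97) and was below detection in pollen. PPH, which removes phytol from the green pigment during chlorophyll breakdown, had 1029 and 1102 in flowers, against 503 and 445 in pistils (1.06). GAMMA-VPE, a vacuolar protease, differed by 0.78, and BFN1 was not called (0.41, adjusted p = 0.06 in limma).

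Photosynthesis genes were lower in 4 of 6 measured members (27.1% of all probe sets were), with a median of -0.47. PRK, an enzyme of carbon fixation, had 2725 and 2659 in flowers, against 4426 and 3590 in pistils (-0.55), and LHCB6, an antenna protein, had 4274 and 4401 in flowers, against 6700 and 5997 in pistils (-0.54). DRT112, a plastocyanin (-0.54), and LHCB4.1 (-0.41) were lower too. SBPASE was higher by 0.24 on the log2 scale and RCA was not called. All 6 were brighter in leaves than in either group.

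Lists of growth and division had calls in either direction, in a share near the 43.0% of all probe sets that were called. Of 8 genes of DNA replication and cell division, PRL, a subunit of the replicative helicase (-0.45), and CDKB2;2 (-0.31) were lower, and the Aurora kinases AUR2 (0.83) and AUR1 (0.30) were higher, with pollen at 2951 for AUR2 and 3752 for AUR1. PCNA1, SYP111, HIK and HTR12 were not called. Of 3 meristem and polarity genes PHV was lower (-0.40), and KNAT6 and YAB3 were not called. Among 12 histone genes MGH3 and AT1G08170 (0.25) were higher, both above detection in pollen, and 4 were lower, led by the linker histone HIS1-3 (-0.90) and followed by H2AXA (-0.62), HON4 (-0.55) and AT1G06760 (-0.53).

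In the gibberellin list GID1A, a gibberellin receptor, had 192 and 177 in flowers, against 827 and 738 in pistils (-1.74, SE 0.07, limma adjusted p = 6.6e-11). GID1B (-0.40) was lower too, and GID1C, the third receptor, was not called and was below detection in both groups. GID1A was at 1366 in ovules and at 309 or less in siliques, leaves and seedlings. GA3OX1, GA2OX6 and GAI were not called.

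The largest drop among named genes belonged to a gene of glucosinolate synthesis, the sulfur compounds that defend plants of the cabbage family. BCAT4, which starts the chain elongation of methionine, had 114 and 94.9 in flowers, against 3571 and 3673 in pistils (-4.39, SE 0.12, limma adjusted p = 3.4e-13). CYP79F1, a cytochrome P450 that acts on the elongated methionine, had 29.6 and 29.5 in flowers, against 625 and 622 in pistils (-2.78), on a probe set that can also bind a close relative. UGT74B1, a glucosyltransferase of the core pathway, had 824 and 843 in flowers, against 1990 and 1757 in pistils (-1.10), and NSP5, which acts on breakdown products, was not called. BAT5 (-2.73) and SOT17 (-1.97), which belong to the same pathway and were looked up after the values were seen, were lower too. For BCAT4 the leaves were at 4788, the seedlings at 3330, the siliques at 626 and the ovules at 90.2, so the pistils lay with leaves and seedlings and the flowers with the ovules. Only 3 probe sets without a gene name here had a larger drop than BCAT4.

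AT4G17470 and AT5G52390 were higher in pistils than in any other sample type. AT4G17470 had 109 and 126 in flowers, against 2899 and 3054 in pistils (-4.01), with ovules at 245 and every other organ at or below 200.2. AT5G52390 had 89.8 and 84.3 in flowers, against 1815 and 1493 in pistils (-3.43, SE 0.25). AT2G23540, by contrast, had 18.9 and 19.8 in flowers, against 875 and 710 in pistils (-3.24), with 1137 in seedlings and 530 in siliques. AT1G04645, the single gene annotated as related to self-incompatibility proteins, had 157 and 159 in flowers, against 978 and 916 in pistils (-2.15, limma adjusted p = 6.8e-12), and it was higher still in ovules (4602) and siliques (3565). PDF1.4, a defensin, was the 1 called member of 5 in its family, with 48.8 and 51.5 in flowers, against 275 and 405 in pistils (-1.74).

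**Figure D4:**
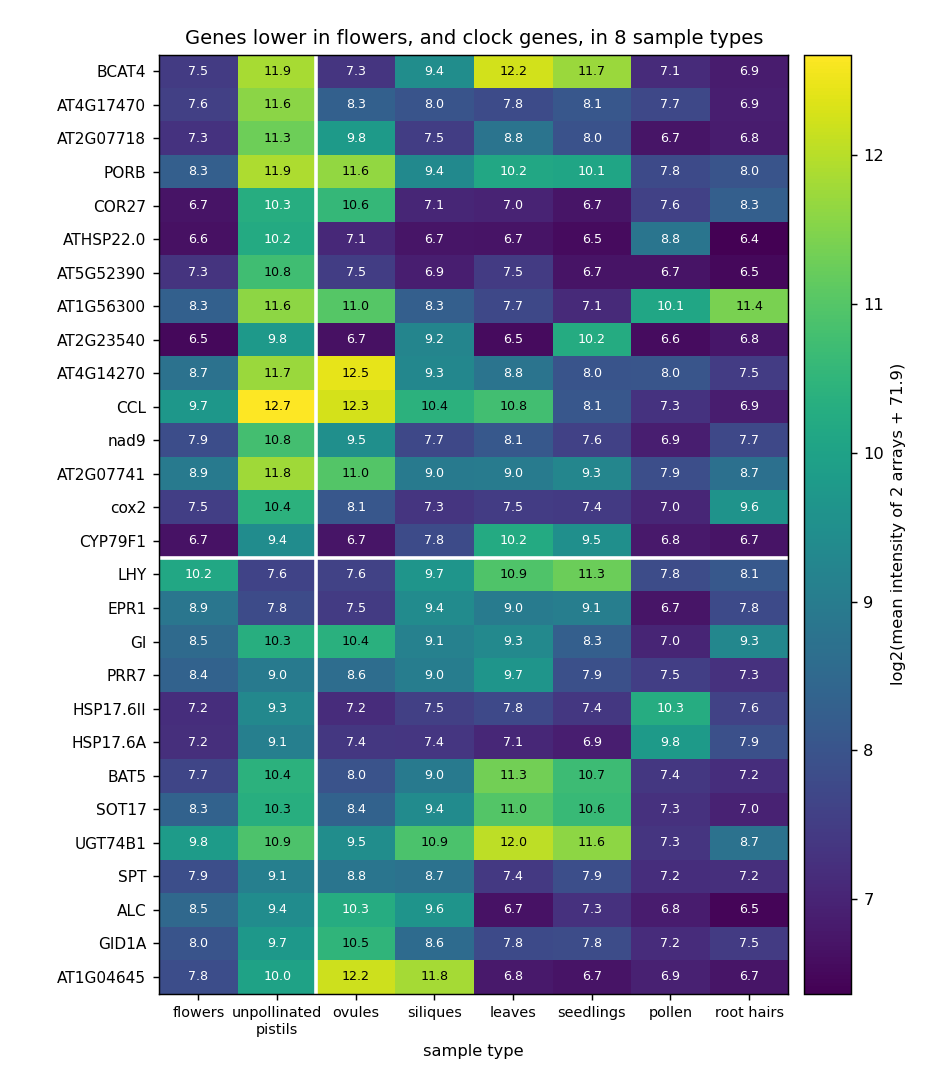
Log2 of the mean intensity of 2 arrays plus the pseudocount in 8 sample types, for the 15 named genes with the largest drop in flowers (above the white line) and for clock, heat shock, glucosinolate and pistil genes (below it). Each row is a gene and each column a sample type. COR27, CCL, AT4G14270 and GI are bright in unpollinated pistils and ovules together, whereas BCAT4 and CYP79F1 are bright in pistils, leaves and seedlings.

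A group of genes was higher in both pistils and ovules than in flowers, leaves, siliques and seedlings. Pistils and ovules share a study, and ovules are also a part of the pistil, so study and organ cannot be told apart here. COR27, a cold-regulated gene with an evening peak, had 32.2 and 30.3 in flowers, against 1325 and 1053 in pistils (-3.60, SE 0.14). CCL had 752 and 786 in flowers, against 6369 and 6596 in pistils (-2.96). PORB, of chlorophyll synthesis, had 241 and 233 in flowers, against 4020 and 3523 in pistils (-3.63). Ovules, from the study of the pistils, stood at 1454 for COR27, 4871 for CCL and 3131 for PORB, above flowers, leaves, siliques and seedlings in each case. AT4G14270 (-2.99) and AT1G56300 (-3.27) showed the same arrangement. However, AT1G56300 was also at 1028 in pollen, from the study of the flowers, and at 2651 in root hairs.

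Clock genes were then looked up by name, after the values had been seen. GI, which peaks late in the day, had 283 and 318 in flowers, against 1266 and 1131 in pistils (-1.77, limma adjusted p = 8.1e-09), with 1263 in ovules. LHY, a morning gene of the clock, had 1086 and 1046 in flowers, against 120 and 137 in pistils (2.51, limma adjusted p = 2.6e-12), with 1904 in leaves, 2379 in seedlings, 741 in siliques and 124 in ovules. EPR1 (1.05) ran with LHY, and TIC (-0.54) with GI. PRR7 (-0.60) was lower in flowers too, but its means in leaves (739) and siliques (452) were above those in pistils (427) and ovules (319). ZTL, LKP2 and CDF2 differed by 0.40 or less in size, and RVE1 was not called. The hour of harvest is not given in the sources used here, and its part in these values was not tested.

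Over all probe sets, this arrangement was counted. Of the 706 probe sets lower in flowers by 2-fold or more, 290 (41.1%) had all 8 arrays of flowers, leaves, seedlings and siliques below all 4 arrays of pistils and ovules, as had 1561 (25.3%) of all 6161 that were lower. Of the 1022 higher by 2-fold or more, 319 (31.2%) had those 8 arrays above the 4, as had 1057 (29.2%) of all 3618 that were higher. Among all 22746 probe sets, 7.56% had the 8 arrays below the 4 and 5.90% had them above. The calls already placed the flower arrays on one side of the pistil arrays. The count was therefore repeated without either, a choice made after the values were seen. All 6 arrays of leaves, seedlings and siliques were below both ovule arrays in 327 (46.3%) of the 706 and in 26.7% of all probe sets, and above both in 454 (44.4%) of the 1022 and in 5004 of all 22746 probe sets. With the 2 pollen arrays added to the 8, the counts were 284 (40.2%) of the 706 and 93 (9.10%) of the 1022. Among all probe sets these shares were 6.87% and 1.42%. Among the 15 named genes with the largest drop 11 were arranged in this way, and among the 15 with the largest rise 2, JMT and SWEET13.

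Single genes of heat shock and dehydration are given as values, chosen for their differences after these were seen, except for ATHSP22.0, which the ranking named. ATHSP22.0, a small heat shock protein, had 29.7 and 27.0 in flowers, against 955 and 1291 in pistils (-3.56, SE 0.10, limma adjusted p = 5.6e-13). HSP17.6II (-2.09) and HSP17.6A (-1.88) were lower as well, and all 3 were below detection in ovules and leaves and above it in pollen. Others ran the other way. COR47, a dehydrin, had 7051 and 7081 in flowers, against 1523 and 1285 in pistils (2.28), and the dehydrin ERD10 (2.31) and LEA3 (2.17) were higher too. ERD9 had 1607 and 1580 in flowers, against 336 and 295 in pistils. COR15A, a stromal protein of the cold response, was higher (2.19) while its close relative COR15B was lower (-1.78), with 293 and 339 in flowers, against 1144 and 1376 in pistils.

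Probe sets of the mitochondrial genome were lower in flowers as a group, another choice made after the values were seen. Of 18 probe sets for 11 genes, 14 were lower, none was higher and 4 were not called, with a median of -0.91, where 27.1% of all probe sets were lower. nad9, a subunit of respiratory complex I, had 157 and 161 in flowers, against 1281 and 2120 in pistils (-2.90, SE 0.18), and cox2, a subunit of cytochrome c oxidase, had 100.3 and 128 in flowers, against 838 and 1754 in pistils (-2.80, SE 0.22). The pistil arrays differed between themselves here, and the second was above the first in 17 of the 18 probe sets. Both pistil arrays were above both flower arrays in 16 of 18, an order that 6160 of the 6161 probe sets called lower had as well. Without the second pistil array the median was -0.72 with 12 lower, and without the first it was -1.18 with 14 lower. Of the 14 called, the ovule mean was above the flower mean in 13 and below the pistil mean in 14, at 657 for nad9 and 198 for cox2.

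A pair of nuclear probe sets that can bind mitochondrial transcripts stood among the 15 named genes with the largest drop. AT2G07718 had 83.9 and 84.3 in flowers, against 2033 and 2777 in pistils (-3.97), and AT2G07741 had 389 and 446 in flowers, against 3086 and 3827 in pistils (-2.84). Both lie in a part of chromosome 2 that carries a copy of mitochondrial DNA, and both probe sets are of the kind that binds several transcripts, so the source of this signal cannot be assigned. Most other loci there did not share a drop of this size, but AT2G07707 (-2.37), AT2G07722 (-2.29) and AT2G07777 (-1.76) were also clearly lower. AT2G07722 had 55.4 and 68.6 in flowers, against 452 and 747 in pistils. Of 34 measured loci in that part of the chromosome 13 were lower (27.1% of all probe sets were), 1 was higher and the median was -0.13, and of the 19 among them with probe sets that bind several transcripts 8 were lower. The plastid genome was near the background, for of its 69 probe sets 12 were higher and 16 lower (15.9% and 27.1% of all probe sets were), with a median of -0.03, between rps18 at -1.24 and rpl20 at 1.01.

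**Figure D5:**
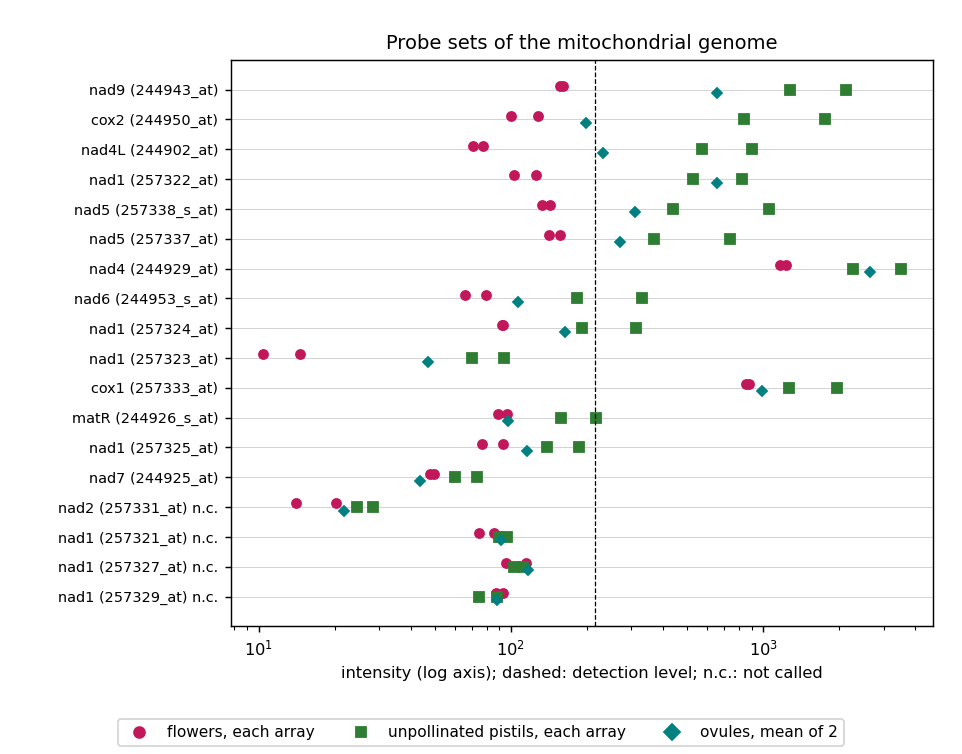
Intensity on a log axis of the 18 probe sets of the mitochondrial genome, with each flower array, each unpollinated pistil array and the mean of ovules. The dashed line is the detection level, and n.c. marks the 4 probe sets that were not called. In nad9 the flower arrays lie at 157 and 161 and the pistil arrays at 1281 and 2120, and the gap narrows towards the bottom rows, which are below the detection level.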

How the data were processed

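The authors deposited 1 table of linear intensity values for 16 ATH1 arrays, which by the study's methods are model-based expression values from dChip, and GCOS 1.4 and MAS5 are listed in the processing notes of the submitters. No probe-level step was repeated. The comparison used log2(intensity + 71.9), the pseudocount being the median over arrays of each array's 20th percentile. R 4.3.3 and limma 3.58.1 fitted 1 mean per sample type over all 16 arrays (8 residual degrees of freedom, mean-variance trend), so the spread is borrowed from other sample types, and p was adjusted by Benjamini-Hochberg over 22746 probe sets. Simulated data with known differences were used to test the same script. Replicates are labelled biological, but what separated them is not given, and p-values measure the spread between these arrays.

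Genes were named from the platform annotation, by symbol, or from the study's tables, for 15575 probe sets. Of 387 list entries in 17 lists, 109 were measured, a gene with several probe sets being represented by the brightest. Families were taken by a word in the symbol, synonyms or title. Only 1 oleosin was measured, which was not called, and no gene with the word DUF1216. Named genes are the 15 largest differences in each direction and the 10 highest with pollen below detection. For these, both arrays of the higher side had to be above detection and above both arrays of the other side. Also named are the 5 largest in each direction with leaves below detection, every floral organ identity gene and up to 5 called members of each other list. Further members are named by their call. The members and lists were chosen with earlier results of these data known. Promoter motifs were not searched. Alternatives covered normalization, pseudocount, dim probe sets, trend, the arrays fitted, a replicate block, a minimum fold and each array left out. Tables used Python 3.11.15, pandas 2.3.3, numpy 2.4.6 and matplotlib 3.10.9.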

Additional observations from a re-analysis of the deposited data

How the results depend on the processing

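The counts of probe sets higher and lower in flowers were 3749 and 5147 after quantile normalization, 3860 and 4968 after scaling to the 75th percentile, and 3534 and 5895 from the 4 arrays alone. They dropped to 2059 and 2672 when the difference was tested against a fold of 1.2, and to 1022 and 706 at 2-fold or more, thresholds that ask for a larger difference. With 1 array left out the higher count ranged from 2862 to 3480 and the lower count from 4737 to 5743. The flower and pistil arrays share only replicate numbers, and the deviations of equal numbers correlated at 0.18. A fit with the replicate number as a block gave 3569 and 6005. Of 154 called genes picked by the size of their difference or looked up by name, none changed direction under the 13 alternatives. The call was kept by 125 in all those alternatives that included them. Another 11 lost it only against a fold of 1.2, and 18 lost it elsewhere too, all with differences of at most 0.62 in size. Further list members named only by their call, such as TSL, were not checked gene by gene. Without flower replicate 1 the lost calls were ABCG11, AT1G12100, AUR1, CDKB2;2, CER3, LKP2, SBPASE, SPL and ZTL. Without flower replicate 2 they were ABCG11, ARF8, AT1G10640, AUR1, BAN, CDKB2;2, CER3, EMS1, GID1B, H2AXA, JP630 (-0.11 in place of -0.18), PHV, SBPASE, SEU, SPL and ZTL. Without pistil replicate 1 they were AUR1, PHV (-0.23 in place of -0.40), SBPASE and ZTL, and without pistil replicate 2 ABCG11 (0.13 in place of 0.39), ARF8, AT1G10640 (-0.23 in place of -0.37), AT1G12100, CDKB2;2 (-0.21 in place of -0.31), CER3, EMS1 (-0.19 in place of -0.34), JP630, LKP2, SEU, SPL (-0.12 in place of -0.25) and ZTL. The block ended the calls of CDKB2;2, JP630 and SPL. Of 812 recounts of list members, 99 moved by over 1.5 times, 45 of them under the minimum folds. The share above detection in pollen among probe sets higher in flowers was 49.5% at 2 times and 33.4% at 5 times the pseudocount, against 40.3% at 3 times. The split by study without the pollen arrays, and that without the flower and pistil arrays, were chosen after seeing the data.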

Other observations

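Further genes with large differences were chosen after their values were seen and are given as values. CYP71B27, a relative of CYP71B31, had 809 and 953 in flowers, against 41.2 and 41.3 in pistils (log2 difference 3.07, limma adjusted p = 9.6e-14), and UGT85A3, a glycosyltransferase, had 1111 and 1220 in flowers, against 109 and 102 in pistils (2.80). Both were below detection in pollen, ovules, leaves, siliques and seedlings. Of the auxin genes looked at, picked for being high, GH3.3, which joins auxin to amino acids, had 626 and 685 in flowers, against 29.5 and 27.2 in pistils (2.86), with siliques at 1138. AXR3, a repressor of auxin signalling (2.48), and IAGLU, an auxin glucosyltransferase (2.18), were bright in leaves and seedlings too and were among the genes with all 8 flower, leaf, seedling and silique arrays above the pistil and ovule arrays. BETA-VPE, a vacuolar protease, had 1980 and 2125 in flowers, against 164 and 206 in pistils (3.05).

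Lower in flowers were the catalase CAT3, with 1768 and 1821 in flowers, against 9695 and 7638 in pistils (-2.22), and the peroxidase PRX52, with 67.4 and 74.1 in flowers, against 587 and 542 in pistils (-2.16). For CAT3 leaves were at 8486. For PRX52 the leaf mean was 149, below detection, but the leaf arrays differed, at 215 and 82.6, the first close to the detection level.

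The fold at which dim probe sets are compared is limited by the pseudocount. Of the probe sets called higher in flowers 716 were below detection in both groups, as were 1340 of those called lower. Organs from which the flower signal came were not separated in these arrays, and the tissue and the study of the flower and pistil arrays cannot be told apart.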
